A study of Mus musculus with 24 samples.

Results

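The 9 genes described here, Acox2, Acox3, Ehhadh, Hsd17b4, Acaa1a, Acaa1b, Ech1, Eci2 and Decr2, encode enzymes of peroxisomal beta-oxidation. They were taken by symbol from the array's annotation, with earlier results of these data known, and all 9 were among the 17215 genes tested. The shares of all genes given beside them below are descriptions, with no test of the 9 as a set. Their 15 probes were well above background in all 22 animals, and none was saturated. Gene expression in whole liver was profiled with Cy3-labelled 1-colour Agilent arrays, in males of 8 weeks from the C57Bl/6J background. WT mice carried Ppara in the liver and LKO mice were liver knockouts of it. Mice of each genotype were fed ad libitum or fasted for 24 h, and all were killed at ZT16, 16 h after lights on. By the labels' animal numbers there were 5 fed and 5 fasted mice of the WT genotype and 6 fed and 6 fasted mice of the LKO genotype, whereas the series description gives 6 per group. The promoter that drives the deletion and the part of Ppara removed are not given in the sources used here, and cells other than hepatocytes contribute RNA to whole liver.

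Peroxisomes shorten fatty acids that mitochondria handle poorly, such as very long-chain, branched-chain and dicarboxylic acids and the side chain of bile acid precursors. An acyl-CoA oxidase starts each round and gives hydrogen peroxide, a bifunctional enzyme hydrates and dehydrogenates the product, and a thiolase releases the shortened acyl-CoA. Unsaturated chains also need isomerases and a reductase. PPARα is a fatty acid-activated nuclear receptor that binds, with RXR, to a direct repeat of the half-site AGGTCA spaced by 1 base (DR1), and it is known as a regulator of peroxisomal genes in rodent liver.

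Upstream sequence is shown for 4 genes: Ehhadh, which changed most, the thiolase paralogs Acaa1a and Acaa1b, and Ech1, an auxiliary enzyme that rose with fasting in both genotypes. Each run is the 250 bases before a RefSeq transcription start in GRCm38.p6, 5′ to 3′ on the gene's strand, at chr16:21787835-21788084 (minus), chr9:119341044-119341293 (plus), chr9:119157094-119157343 (minus) and chr7:28825088-28825337 (plus). Capitals mark the first best match to AGGTCA repeated after any 1 base, with the gene's strand searched before the other. Matches that tie with it are not marked.
Ehhadh: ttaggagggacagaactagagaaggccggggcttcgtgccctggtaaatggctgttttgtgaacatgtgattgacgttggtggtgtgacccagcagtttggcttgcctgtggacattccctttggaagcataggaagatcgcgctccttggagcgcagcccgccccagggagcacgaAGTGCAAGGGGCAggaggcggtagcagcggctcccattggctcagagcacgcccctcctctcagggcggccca
Acaa1a: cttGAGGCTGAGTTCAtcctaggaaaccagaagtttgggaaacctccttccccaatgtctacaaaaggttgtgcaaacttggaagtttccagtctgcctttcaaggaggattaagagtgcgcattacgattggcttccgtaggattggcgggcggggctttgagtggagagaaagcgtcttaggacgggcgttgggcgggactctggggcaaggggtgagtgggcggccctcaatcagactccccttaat
Acaa1b: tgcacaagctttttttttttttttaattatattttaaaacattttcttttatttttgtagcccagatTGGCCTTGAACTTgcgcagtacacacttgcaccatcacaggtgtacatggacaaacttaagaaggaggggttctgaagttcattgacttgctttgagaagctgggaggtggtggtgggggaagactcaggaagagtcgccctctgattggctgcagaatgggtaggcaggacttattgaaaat
Ech1: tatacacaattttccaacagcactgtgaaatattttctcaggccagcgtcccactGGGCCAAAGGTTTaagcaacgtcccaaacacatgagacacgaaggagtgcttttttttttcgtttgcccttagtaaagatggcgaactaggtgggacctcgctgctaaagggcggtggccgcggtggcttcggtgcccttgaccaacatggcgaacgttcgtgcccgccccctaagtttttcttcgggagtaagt
The promoter table held 8 of the 9 genes. None of the 8 held a full DR1 or an exact AGGTCA in this window, against 0.0% and 14.0% of all windows. The best DR1 match had 7 of 12 fixed letters in Acaa1a and Decr2, 8 in Acox3, Ehhadh, Acaa1b, Ech1 and Eci2, and 9 in Acox2. At least 8 letters were matched in 74.5% of all 32851 promoter windows and at least 9 in 21.3%. An exact CCAAT on either strand was present in Ehhadh, Acaa1a, Acaa1b, Eci2 and 1 of the Acox2 windows, against 33.8% of all windows. TATAAA, the last of the 4 motifs searched, had no exact match in these genes, against 12.4% of all windows. These matches are descriptions of letters in a short window.

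Ppara itself was checked first. Its level, a log2 signal relative to the array's 75th percentile as for every level below, ranged from 5.55 to 6.07 in fed WT, 6.26 to 6.60 in fasted WT, 4.47 to 5.51 in fed LKO and 5.38 to 5.72 in fasted LKO. LKO was lower by -0.67 ± 0.14 (SE) on the log2 scale in fed mice (limma, adjusted p = 0.00609) and by -0.88 ± 0.14 in fasted mice (adjusted p = 4.6e-05). The second Ppara probe gave -0.85 in fed and -1.01 in fasted mice. With fasting, Ppara rose by 0.64 in WT (limma, adjusted p = 0.00114) and by 0.44 in LKO (adjusted p = 0.00911). The genotypes did not overlap in either state. Since the deleted part is unknown here, these probes may lie outside it. The hepatocyte markers measured (7 of 8) gave summed log2 levels of 58.78 to 60.66 in fed WT, 61.41 to 62.04 in fasted WT, 60.13 to 60.84 in fed LKO and 61.22 to 62.03 in fasted LKO, and none differed between genotypes by the test. With fasting, 3 of the 7 rose and 1 fell in WT, and 4 rose and 1 fell in LKO. Of all genes, 44.4% were called with fasting in WT and 49.7% in LKO. Replicate 3 of the fed LKO group scored 57.3 on principal component 3, where its 5 group mates scored -16.8 to -4.6, and this animal had the lowest fed LKO level for 8 of the 9 genes.

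In WT liver, 8 of the 9 genes were higher after the fast and 1, Acox3, was lower, by the test across all genes (limma, Benjamini-Hochberg adjusted p below 0.05). Ehhadh rose most, 10.7-fold, and the other 7 rose 1.4-fold to 2.53-fold. Fed and fasted WT mice did not overlap for any of the 9. Of all genes tested, 44.4% were called in this comparison, 23.1% as higher and 21.2% as lower, and 34.3% had groups that did not overlap. The median change of the 9 was 0.889 on the log2 scale, beside 0.01 over all genes.

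In LKO liver the same fast gave 4 genes higher (Acaa1a, Ech1, Eci2 and Decr2), 4 lower (Ehhadh, Acaa1b, Hsd17b4 and Acox3) and 1, Acox2, that did not pass. Fed and fasted LKO mice did not overlap for 5 of the 9. The background was 49.7% called, 23% higher and 26.7% lower, with 27.3% whose groups did not overlap. The median change was 0.09, beside -0.037 over all genes. Ehhadh, Acaa1b and Hsd17b4 thus rose in WT and fell in LKO.

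**Figure D1:**
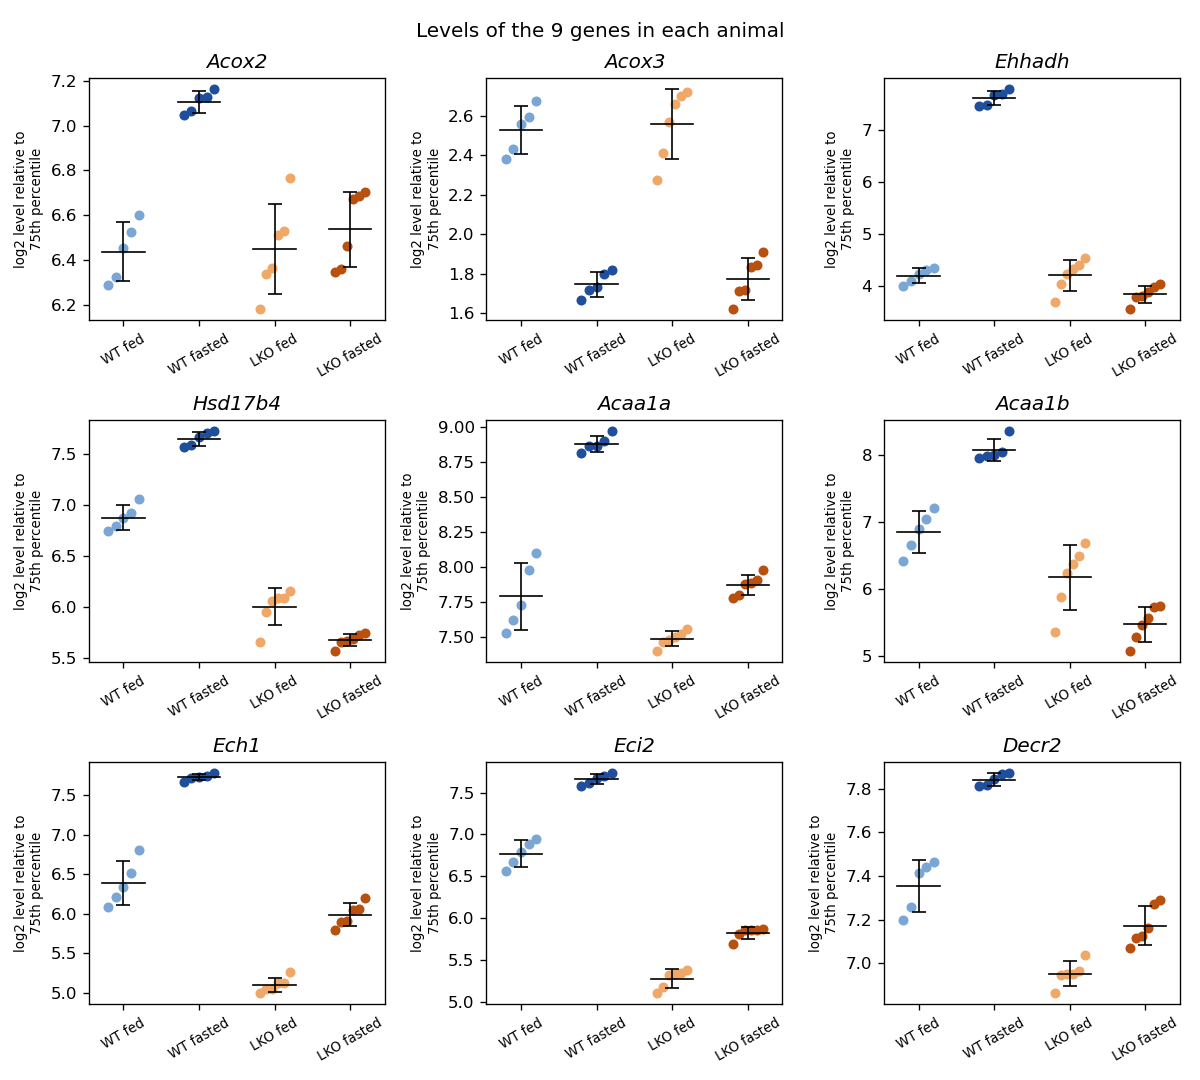
Level of each gene in every animal (vertical axes, log2 signal relative to the array's 75th percentile, scaled per gene) in the 4 groups; points are animals, lines group means and bars SD. Fasted WT lies above all other groups for 8 genes, while for Acox3 both fasted groups lie below both fed groups.

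Among the oxidases, Acox2, which acts on branched chains and bile acid intermediates, had levels of 6.29, 6.32, 6.45, 6.52 and 6.60 in fed WT and 7.05, 7.06, 7.12, 7.13 and 7.16 in fasted WT. Fed LKO ranged from 6.18 to 6.77, with a median of 6.44, and fasted LKO from 6.35 to 6.70, with a median of 6.57. Fasted WT stood above the other 3 groups, which overlapped one another. The change with fasting was 0.67 ± 0.10 (log2, SE) in WT (adjusted p = 1.15e-05) and 0.09 ± 0.09 in LKO (adjusted p = 0.425, 95% interval -0.09 to 0.27). Its second probe gave 0.86 in WT and 0.09 in LKO.

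Acox3, an oxidase of branched-chain acyl-CoAs, read 2.38, 2.43, 2.56, 2.60 and 2.68 in fed WT and 1.67, 1.72, 1.73, 1.80 and 1.82 in fasted WT. Its levels were 2.28 to 2.72, with a median of 2.62, in fed LKO and 1.62 to 1.91, with a median of 1.78, in fasted LKO. Both fasted groups lay below both fed groups, and the genotypes overlapped. The fall was -0.78 ± 0.08 in WT (adjusted p = 2.28e-07) and -0.78 ± 0.07 in LKO (adjusted p = 3.94e-08), and the difference of these responses was -0.0029, with a 95% interval of -0.23 to 0.23. The size of the fall differed between its 4 probes. The probe at chr5:35956215-35956274 (mm9) gave the values above. The other 3 probes gave -0.10, -0.28 and -0.14 in WT, of which only -0.28 passed over all probes (limma, adjusted p = 0.0307), and -0.20, -0.15 and 0.19 in LKO, of which none passed. With the 4 probes averaged, Acox3 changed by -0.32 in WT (adjusted p = 0.000118) and by -0.24 in LKO (adjusted p = 0.000913). Over all kept probes, 41.2% were called in WT and 46.5% in LKO.

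**Figure D2:**
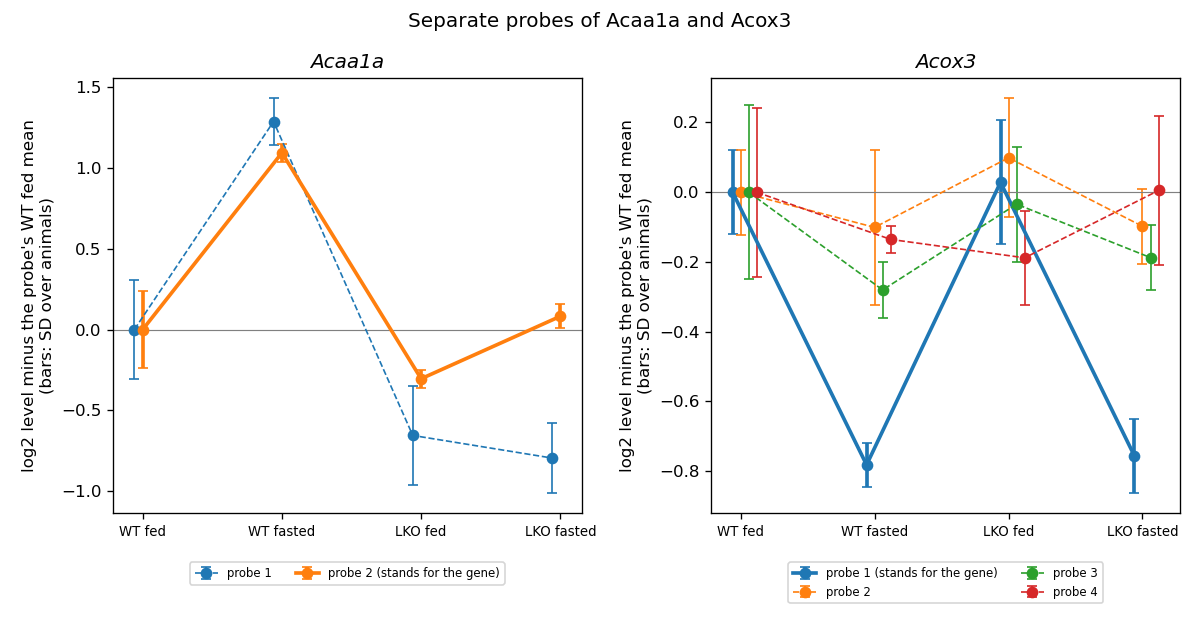
Group means of every probe of Acaa1a and Acox3, as log2 level minus that probe's fed WT mean (vertical axis), by group, with SD over animals. The Acox3 probe that stands for the gene falls by 0.78 in fasted WT while the other 3 move by -0.10 to -0.28 there, and the Acaa1a probes separate in LKO.

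Ehhadh, the L-bifunctional enzyme, had the largest change of the 9. Its level was 3.99, 4.10, 4.22, 4.30 and 4.34 in fed WT and 7.45, 7.48, 7.66, 7.68 and 7.77 in fasted WT. It was 3.69 to 4.54, with a median of 4.28, in fed LKO and 3.55 to 4.03, with a median of 3.84, in fasted LKO. Every fasted WT mouse stood far above all others, fed mice of both genotypes overlapped, and fasted LKO had the lowest median while overlapping both fed groups. Fasting changed Ehhadh by 3.42 ± 0.13 in WT (adjusted p = 5.24e-13) and by -0.37 ± 0.12 in LKO (adjusted p = 0.0119). Its single probe lies at chr16:21761914-21761973 (mm9).

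Hsd17b4, the D-bifunctional enzyme that also serves bile acid and branched-chain substrates, had levels of 6.74, 6.79, 6.87, 6.92 and 7.05 in fed WT and 7.56, 7.59, 7.66, 7.70 and 7.72 in fasted WT. It ranged from 5.66 to 6.16, with a median of 6.07, in fed LKO and from 5.57 to 5.74, with a median of 5.68, in fasted LKO. The order was fasted WT, fed WT, fed LKO and fasted LKO, with overlap only between the LKO groups. The change was 0.77 ± 0.08 in WT (adjusted p = 1.35e-07) and -0.32 ± 0.07 in LKO (adjusted p = 0.000693).

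The 2 bifunctional enzymes were compared within each animal. In WT, Hsd17b4 rose 2.65 less than Ehhadh on the log2 scale (difference of changes -2.65, exact permutation test, two-sided p = 0.00794, the smallest that 5 against 5 mice allow; 0.0136 after Benjamini-Hochberg adjustment over the 24 pair tests made). In LKO their changes differed by 0.04 (exact p = 0.671, adjusted 0.7). These 24 tests, 6 gene pairs in 4 comparisons, were added with results of these data known, and 17 of them passed after adjustment. Not all of the 24 are given in this text, and those of Acox3 against Acox2 are left out.

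The thiolases Acaa1a and Acaa1b are near-identical paralogs, and cross-hybridisation between them was not tested. Acaa1a, by its probe at chr9:119259353-119259412 (mm9), read 7.53, 7.62, 7.72, 7.97 and 8.10 in fed WT and 8.81, 8.86, 8.86, 8.90 and 8.97 in fasted WT. Levels were 7.40 to 7.56, with a median of 7.49, in fed LKO and 7.78 to 7.98, with a median of 7.88, in fasted LKO. Fasted mice stood above fed mice in each genotype without overlap. The change was 1.09 ± 0.08 in WT (adjusted p = 2.92e-09) and 0.39 ± 0.07 in LKO (adjusted p = 0.000202). The second Acaa1a probe, which spans chr9:119255643-119256863 (mm9), gave 1.29 in WT and -0.14 in LKO (adjusted p over all probes = 0.449), so the rise in LKO rested on 1 of 2 probes. With both probes averaged it was 0.12 (adjusted p = 0.323).

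Acaa1b, by its probe at chr9:119057326-119057385 (mm9), read 6.42, 6.65, 6.89, 7.04 and 7.21 in fed WT and 7.96, 7.98, 8.00, 8.05 and 8.35 in fasted WT. It ranged from 5.35 to 6.68, with a median of 6.31, in fed LKO and from 5.07 to 5.74, with a median of 5.51, in fasted LKO. Fasted WT stood above all other groups, and fed LKO overlapped both fed WT and fasted LKO. The change was 1.22 ± 0.20 in WT (adjusted p = 5.33e-05) and -0.70 ± 0.18 in LKO (adjusted p = 0.0036). Without fed LKO replicate 3, which stood apart, the change in LKO was -0.86 (adjusted p = 0.000112). In LKO, Acaa1b changed by -1.08 relative to the first Acaa1a probe (exact permutation p = 0.00216, adjusted 0.00576, no overlap between fed and fasted mice), and in WT by 0.13 (exact p = 0.325, adjusted 0.371). Against the second Acaa1a probe, added after the values were seen, the differences were -0.56 in LKO (exact permutation p = 0.00216, 0.0055 after adjustment over 28 tests) and -0.06 in WT (exact p = 0.452, adjusted 0.506).

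The auxiliary enzymes for unsaturated chains rose in both genotypes. Ech1, a dienoyl-CoA isomerase found in peroxisomes and mitochondria, read 6.08, 6.21, 6.34, 6.51 and 6.81 in fed WT and 7.67, 7.72, 7.73, 7.74 and 7.78 in fasted WT. It ranged from 4.99 to 5.26, with a median of 5.08, in fed LKO and from 5.79 to 6.20, with a median of 5.98, in fasted LKO. Each genotype's fasted mice lay above its fed mice, and only fed WT and fasted LKO overlapped. The change was 1.34 ± 0.10 in WT (adjusted p = 4.09e-09) and 0.89 ± 0.09 in LKO (adjusted p = 1.48e-07).

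Eci2, an enoyl-CoA isomerase that moves a double bond into the position the pathway uses, read 6.56, 6.67, 6.79, 6.89 and 6.95 in fed WT and 7.58, 7.62, 7.68, 7.70 and 7.73 in fasted WT. It ranged from 5.10 to 5.38, with a median of 5.32, in fed LKO and from 5.69 to 5.87, with a median of 5.85, in fasted LKO. The order was fasted WT, fed WT, fasted LKO and fed LKO, with no overlap between neighbours. The change was 0.89 ± 0.07 in WT (adjusted p = 5.73e-09) and 0.55 ± 0.06 in LKO (adjusted p = 5.41e-07), and its second probe gave 1.04 and 0.56.

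Decr2, the peroxisomal dienoyl-CoA reductase, read 7.20, 7.26, 7.41, 7.44 and 7.47 in fed WT and 7.81, 7.81, 7.84, 7.87 and 7.87 in fasted WT. It ranged from 6.86 to 7.04, with a median of 6.95, in fed LKO and from 7.07 to 7.29, with a median of 7.14, in fasted LKO. The order was that of Eci2, with fed WT and fasted LKO overlapping. The change was 0.49 ± 0.06 in WT (adjusted p = 8.6e-07) and 0.22 ± 0.05 in LKO (adjusted p = 0.00143).

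**Figure D3:**
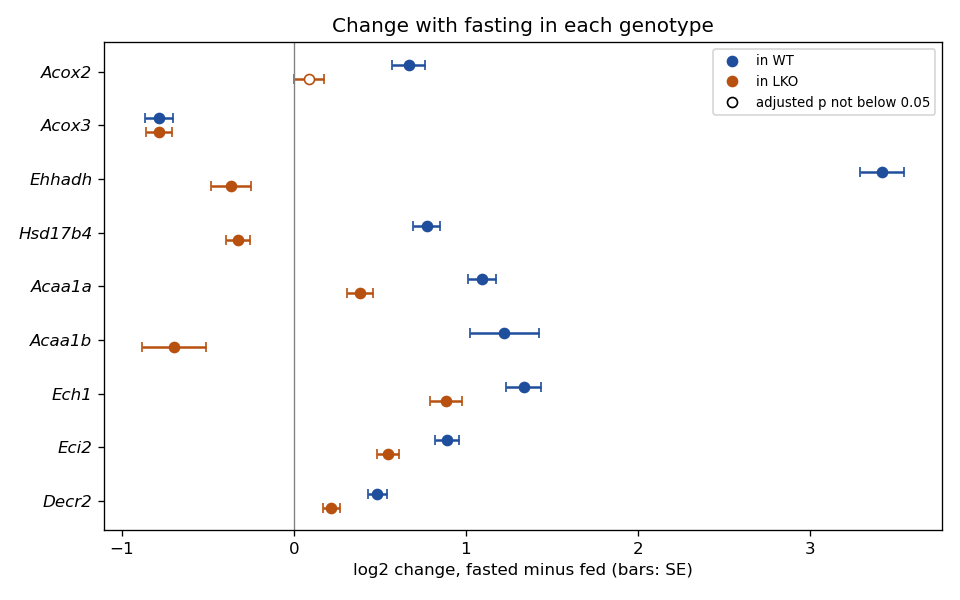
Change with fasting of each gene (horizontal axis, log2, fasted minus fed) in WT and in LKO, with SE; open points did not pass the test. Ehhadh lies at 3.42 in WT and -0.37 in LKO, and the Acox3 points coincide near -0.78.

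Whether the fasting response differed between genotypes was tested directly. By the test of the difference, the change was lower in LKO for 8 of the 9 genes and higher for none, beside 18.6% of all genes called, 7.5% higher and 11.1% lower. The difference was -3.79 ± 0.17 for Ehhadh (adjusted p = 2.61e-11), -1.92 ± 0.27 for Acaa1b (adjusted p = 8.06e-05) and -1.10 ± 0.11 for Hsd17b4 (adjusted p = 7.65e-07). It was -0.71 ± 0.11 for Acaa1a (adjusted p = 0.000178; -1.42 by its second probe and -1.07 with both averaged) and -0.58 ± 0.13 for Acox2 (adjusted p = 0.00409). For the auxiliary enzymes it was smaller, -0.45 ± 0.14 for Ech1 (adjusted p = 0.0267), -0.34 ± 0.09 for Eci2 (adjusted p = 0.0153) and -0.27 ± 0.08 for Decr2 (adjusted p = 0.0194). These 3 calls were lost with quantile normalization, where the values were -0.31 (adjusted p = 0.118), -0.20 (adjusted p = 0.173) and -0.11 (adjusted p = 0.36), and in the authors' deposited table, which left 5 genes called. Ech1 also lost its call without fed WT replicate 2 (-0.37, adjusted p = 0.0514) or replicate 5 (-0.41, adjusted p = 0.0529). Of all genes called, 40.3% were higher in the main values and 51.1% with quantile normalization.

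In fed mice, 5 of the 9 genes were lower in LKO than in WT and none was higher, beside 4.02% of all genes called, 1.77% higher and 2.25% lower. The median difference of the 9 was -0.401, beside 0.005 over all genes. Eci2 was 2.82-fold lower (-1.50 ± 0.07, adjusted p = 7.87e-12) and Ech1 2.45-fold lower (-1.29 ± 0.10, adjusted p = 2.29e-08). Hsd17b4 differed by -0.87 ± 0.07 (adjusted p = 1.36e-07) and Decr2 by -0.40 ± 0.05 (adjusted p = 7.58e-05). For these 4 genes fed LKO and fed WT mice did not overlap, beside 3.69% of all genes.

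Both thiolases lay near the threshold in fed mice by the probes that stand for them. Acaa1a differed by -0.30 ± 0.08 (adjusted p = 0.0286), and the call was lost without fed WT replicate 1 (-0.26, adjusted p = 0.0996), fed WT replicate 4 (-0.23, adjusted p = 0.0751) or fed LKO replicate 5 (-0.30, adjusted p = 0.0517). The second Acaa1a probe differed by -0.65 (adjusted p over all probes = 0.0134), and both averaged by -0.48 (adjusted p = 0.00807). Acaa1b differed by -0.67 ± 0.19 (adjusted p = 0.0544) and did not pass. It passed without fed WT replicate 2 (-0.78, adjusted p = 0.0296), fed LKO replicate 1 (-0.78, adjusted p = 0.0243) or fed LKO replicate 4 (-0.74, adjusted p = 0.0472). Over all alternatives the adjusted p ranged from 0.00572 to 0.167 for Acaa1a and from 0.0243 to 0.2 for Acaa1b.

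The other 3 genes did not pass in fed mice, with 95% intervals of -0.24 to 0.26 for Ehhadh, -0.18 to 0.20 for Acox2 and -0.13 to 0.19 for Acox3. Without fed LKO replicate 3 the same 5 genes were called, with Acaa1a at -0.29 (adjusted p = 0.0459) and Acaa1b at -0.51 (adjusted p = 0.0783).

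After the fast, 8 of the 9 genes were lower in LKO and Acox3 did not pass (0.03 ± 0.08, 95% interval -0.14 to 0.19). Of all genes, 37.9% were called, 16.5% higher and 21.4% lower. The 8 genes showed no overlap between the genotypes, beside 25.3% of all genes. Ehhadh was 13.7-fold lower (-3.78 ± 0.12, adjusted p = 1.6e-14), Acaa1b 6.04-fold lower (-2.59 ± 0.19, adjusted p = 2.38e-09) and Hsd17b4 3.92-fold lower (-1.97 ± 0.07, adjusted p = 6.63e-14). Eci2, Ech1 and Acaa1a were 3.58-fold, 3.35-fold and 2.01-fold lower, and Decr2 and Acox2 1.59-fold and 1.48-fold lower. The size for Acaa1a depended on the probe, with a log2 difference of -1.01 by the first, -2.08 by the second and -1.54 with both averaged. Acaa1b was lower still, by a difference of -1.58 from the first Acaa1a probe (exact permutation p = 0.00216, adjusted 0.00576) and of -0.51 from the second (exact permutation p = 0.00216, 0.0055 after adjustment over 28 tests). The median difference of the 9 was -1.744, beside -0.03 over all genes. Of all genes called, 43.6% were higher in the main values and 51.5% with quantile normalization.

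Each of the 3 slides held 2 arrays of every group. All 38 changes called among the 9 genes over the 5 comparisons had the same sign on each slide. The calls came from these same arrays, so this is a description, and the share over all genes is not given. The slides also share animals, since WT fasted replicate 1 and WT fed replicate 3 each had arrays on 2 slides. For Ehhadh the within-slide values ran from 3.28 to 3.53 in WT fasting and from -3.86 to -3.62 between fasted genotypes. The difference of responses ran from -0.84 to -0.11 for Ech1, -0.42 to -0.18 for Eci2 and -0.40 to -0.08 for Decr2.

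**Figure D4:**
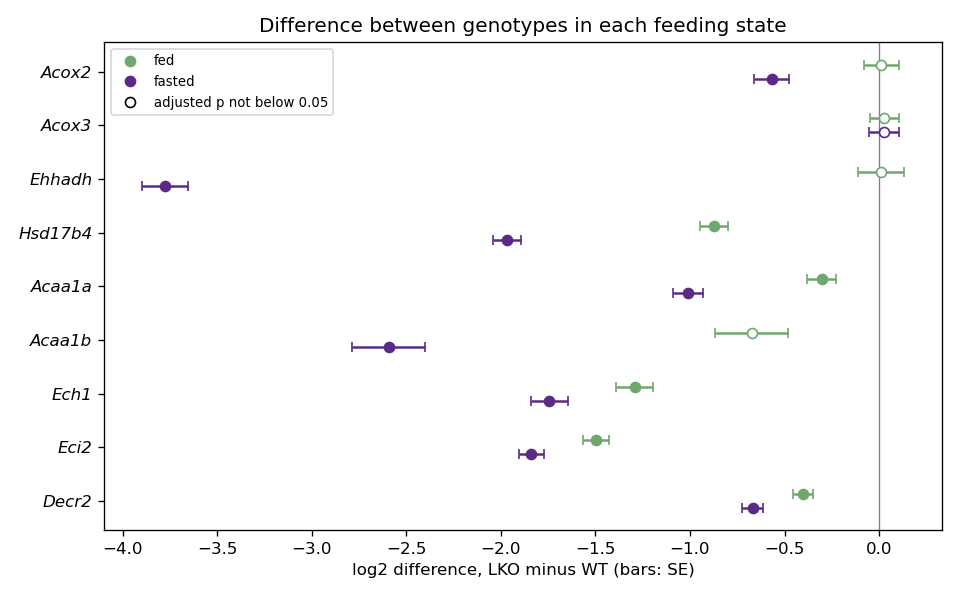
Difference between genotypes for each gene (horizontal axis, log2, LKO minus WT) in fed and in fasted mice, with SE; open points did not pass the test. Ehhadh lies at 0.01 in fed and -3.78 in fasted mice, while Eci2 is low in both states, at -1.50 and -1.84.

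Markers of other liver cells were read beside these results. The shares of all genes called in each comparison are those given above. All 7 endothelial markers were lower in fasted LKO than in fasted WT, 4 of 7 rose with fasting in WT, and 1 rose and 3 fell in LKO. Their summed log2 level was 12.74 to 15.29 in fasted WT, above the 9.87 to 12.2 of fed WT, 10.71 to 12.73 of fed LKO and 10.02 to 12.4 of fasted LKO. The adipocyte sum (3 of 4 markers measured) was -7.02 to -4.5 in fed WT and -6.26 to -3.85 in fasted WT, above the -9.98 to -7.98 and -11.08 to -8.34 of fed and fasted LKO, with 1 of 3 markers called lower in each state. The gap rested mainly on 1 marker, since the median difference of the 3 was -0.112 in fed and -0.242 in fasted mice, beside means of -1.118 and -1.559. With fasting, 1 adipocyte marker fell in LKO and none passed in WT. Between fasted genotypes, 1 of 7 macrophage markers was lower, 1 of 5 cholangiocyte and 2 of 3 red cell markers were higher, and none of 7 stellate markers and not the 1 kidney marker measured passed. With fasting, 2 of 7 stellate markers rose and 2 fell in WT, and 1 rose and 4 fell in LKO. Of the macrophage markers, 1 rose and 2 fell in WT, and 1 rose and 1 fell in LKO. Of the 3 red cell markers, 2 fell with fasting in WT and 1 in LKO, and 1 was higher in fed LKO than in fed WT. Their summed level was 8.17 to 8.87 in fed WT, 5.29 to 6.97 in fasted WT, 8.51 to 12.42 in fed LKO and 6.51 to 9.29 in fasted LKO. Of the 5 cholangiocyte markers, 1 fell with fasting in WT and none passed in LKO, and 1 was higher in fed LKO than in fed WT. The part of these cells in the results was not tested, and in whole liver fewer cells of a type and less RNA per cell cannot be told apart.

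Of 60 other peroxisomal genes tested (transporters, thioesterases, alpha-oxidation and biogenesis genes among them), 33 rose and 8 fell with fasting in WT, and 15 rose and 24 fell in LKO. Of all genes, 23.1% rose and 21.2% fell in WT, and 23% rose and 26.7% fell in LKO. In LKO against WT, 1 was higher and 12 lower in fed mice, and 2 were higher and 40 lower in fasted mice. The shares of all genes were 1.77% higher and 2.25% lower in fed mice, and 16.5% and 21.4% in fasted mice. The change with fasting was lower in LKO for 31 and higher for none, beside 11.1% and 7.5% of all genes. The largest changes with fasting in WT were those of the acyl-CoA thioesterases Acot5 (4.09) and Acot3 (4.08) and of Crat (2.25), the carnitine acetyltransferase. The largest changes in LKO were those of Hao1 (-1.41), a glycolate oxidase, Nudt7 (-1.34), a CoA-cleaving hydrolase, and Abcd2 (-1.07), a transporter of very long-chain acyl-CoAs. Between fasted genotypes Abcd2 (-4.26), Acot3 (-3.55) and Acot5 (-2.36) differed most, and the same 3 led the difference of responses, at -2.90, -4.24 and -3.05. In fed mice Abcd2 (-1.36), Acot6 (1.30) and Aldh3a2 (-0.96), a fatty aldehyde dehydrogenase, differed most, with Acot6 higher in LKO.

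The mitochondrial enzymes of the same steps gave a background within fatty acid oxidation. All 12 rose with fasting in WT (median 0.893), and in LKO 3 rose and 2 fell (median -0.092). Of all genes, 23.1% rose in WT (median 0.01), and 23% rose and 26.7% fell in LKO (median -0.037). LKO was lower for 8 of 12 in fed mice and for 12 of 12 in fasted mice, with none higher. Of all genes, 2.25% were lower in fed mice and 21.4% in fasted mice. The difference of responses was called for 11 of 12, all lower in LKO, beside 11.1% of all genes. The exception was Acadl (-0.12, limma, adjusted p = 0.484).

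Counterparts did not always move equally. Ehhadh changed by 2.50 more than Hadha, the mitochondrial trifunctional subunit, in WT fasting (exact permutation p = 0.00794, adjusted 0.0136) and by -0.26 relative to it in LKO (exact p = 0.106, adjusted 0.141). Eci2 was lower than its mitochondrial counterpart Eci1 by a further 0.82 in fed LKO against fed WT (difference -0.82, exact p = 0.00216, adjusted 0.00576), and in LKO fasting it rose by 0.55 where Eci1 changed by -0.20 (difference 0.75, exact p = 0.00216, adjusted 0.00576). Between fasted genotypes Eci2 and Eci1 differed by 0.11 (exact p = 0.262, adjusted 0.314). Decr2 rose 0.38 less than Decr1 in WT fasting (difference -0.38, exact p = 0.00794, adjusted 0.0136), and was less lowered in fasted LKO (difference 0.66, exact p = 0.00216, adjusted 0.00576). Of the thiolases, Acaa2 and Hadhb changed by 0.23 and 1.28 in WT and by -0.12 and 0.29 in LKO, beside 1.09 and 0.39 for Acaa1a and 1.22 and -0.70 for Acaa1b. The dehydrogenases Acadvl, Acadl, Acadm and Acads changed by 0.58, 1.30, 1.48 and 0.48 in WT, beside 0.67 for Acox2 and -0.78 for Acox3. In LKO, Acadl rose by 1.18 and Acadm by 0.44, and Acadvl (0.12) and Acads (-0.11) did not pass, beside 0.09 for Acox2 and -0.78 for Acox3.

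**Figure D5:**
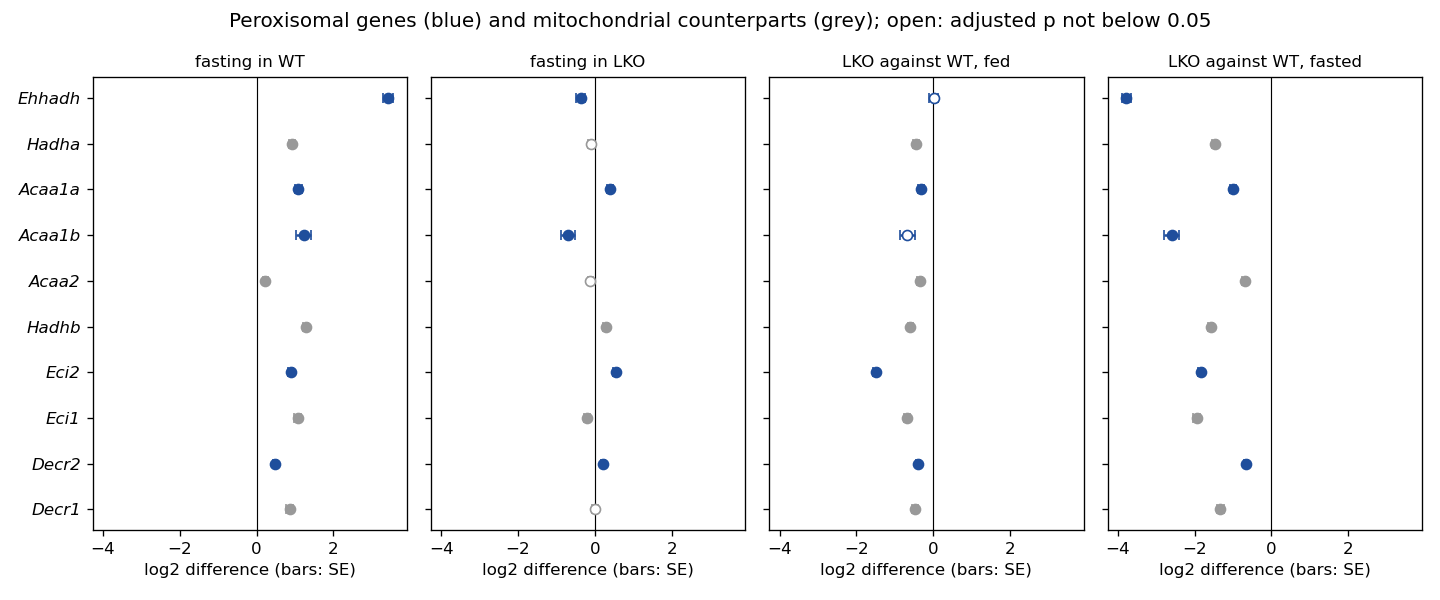
Changes of peroxisomal genes (blue) and their mitochondrial counterparts (grey) in 4 comparisons (horizontal axes, log2 difference, SE bars); open points did not pass the test. Ehhadh at 3.42 stands well above Hadha at 0.92 in WT fasting, and Eci2 at -1.50 lies below Eci1 at -0.67 in fed LKO against fed WT.

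Genes with the most similar pattern were named by the root mean square difference between 4 centred group means. Among the 5 nearest to the mean of the 9 were Unc5b (0.060), Hadha (0.068), Fam195a (0.068) and Mmd (0.076). Nearest to Ehhadh were Themis (0.31), Acot3 (0.34), Unc79 (0.40), Retsat (0.44) and Rfx4 (0.46). Nearest to Acaa1b were Mycl (0.090), Acss3 (0.12), Chrna2 (0.12), Acot8 (0.21) and Paqr7 (0.21), and nearest to Hsd17b4 were Acot8 (0.11), Fitm2 (0.13), E2f8 (0.13), Eci1 (0.13) and Acss3 (0.13). These are descriptions over 4 means, with no test.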

How the data were processed

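Liver RNA was labelled with Cy3 and hybridised to 24 one-colour arrays from 22 mice. The scanner files hold intensity values made by the authors with Agilent Feature Extraction 10.10.1.1, background-subtracted and not normalized between arrays, per the file headers. The authors also deposited log2 values, made with limma per the submitters' processing notes, which served as an alternative. Control and outlier-flagged spots were dropped, and log2 processed signals were set relative to each array's 75th percentile (309.7 to 412.6 intensity units). Between 50% and 58.8% of probes were above background on an array. Repeat spots, and both arrays of the 2 animals hybridised again, were averaged. Probes with a symbol detected in at least 5 of 22 animals were kept (28138), and the brightest stood for its gene (17215 genes).

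Limma 3.58.1 in R 4.3.3 fitted 1 mean per group, and 5 contrasts were adjusted by Benjamini-Hochberg over all genes. The procedure was tested on simulated data, with results not reported here. Probe positions are those of the array files (mm9). Each animal counted once, and the number of arrays limits precision.

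A probe counted as detected in an animal when more than 50% of its spots and arrays were well above background. This rule was tightened from at least 50% after a first fit (28360 probes, 17331 genes), to bring the number of genes near that of an earlier analysis of the same files, and the looser rule is given as an alternative. The members and gene lists were chosen with earlier results of these data known. Named genes were the 9 members, Ppara, the mitochondrial counterparts, the 3 other peroxisomal genes with the largest called change per comparison, and the 5 most similar genes for the mean of the members, Ehhadh, Acaa1b and Hsd17b4. The similar genes of the other 6 members and the 24 pair tests were added later, as were 4 pair tests with the second Acaa1a probe. One of the similar genes is not reported here. All 4 promoter motifs searched are reported.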

Additional observations from a re-analysis of the deposited data

Results flagged for a closer look

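In 36 groups of animals (9 genes in 4 groups), 2 animals lay far from the rest of their group, where chance gives about 1 in 20 groups. Acaa1b in fasted WT replicate 3 had a level of 8.35, above 7.96 to 8.05 in the others. Eci2 in fasted LKO replicate 6 had a level of 5.69, below 5.81 to 5.87 in the others.

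The fasting response differed between genotypes by limma's test for 8 genes, beside 18.6% of all genes tested. The difference, LKO minus WT on the log2 scale, was -3.79 for Ehhadh, -1.92 for Acaa1b, -1.1 for Hsd17b4, -0.71 for Acaa1a, -0.58 for Acox2, -0.45 for Ech1, -0.34 for Eci2 and -0.27 for Decr2. The calls of Ech1, Eci2 and Decr2 were lost with quantile normalization and in the authors' deposited table.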

How the results depend on the processing

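Of 38 changes called among the 9 genes, 33 kept their call and none reversed under the alternatives run. The exceptions were Acaa1a in fed mice and in LKO fasting, and the difference of responses for Ech1, Eci2 and Decr2. The number of genes with a called difference of responses was 5, in place of 8, with quantile normalization, with normexp and quantile normalization, and in the authors' deposited table. Fitting only the 2 fed groups called 360 of all genes in place of 692. The cause was not tested, except that this fit has fewer animals. The detection rule changed after a first fit altered no count of called members.

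Acaa1b in fed mice, uncalled in the main values, passed with quantile normalization, normexp, the deposited table, the stricter filter and the replicate block, and Acaa1a in fed mice did not with no filter or with the fed groups alone.

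Values that changed sign were all uncalled and near 0. Acox2 in fed mice was -0.011 in the deposited table, -0.035 with probes averaged and -0.038 with the replicate block. Acox3 in fed mice was -0.024 with probes averaged. Ehhadh in fed mice was -0.022 with the replicate block. The difference of responses of Acox3 was 0.0086 with quantile normalization, 0.020 with normexp, 0.074 in the deposited table, 0.089 with probes averaged, 0.0079 with slide as a block and 0.0082 with the first array only. The difference of changes of Acaa1b and Acaa1a in WT fasting was -0.062 with the second Acaa1a probe, chosen after seeing the data. Leaving out 1 animal gave -0.053 to 0.064 for Acox2 in fed mice, -0.0086 to 0.084 for Acox3 in fed mice, -0.0015 to 0.056 for Acox3 in fasted mice, -0.059 to 0.034 for the Acox3 difference of responses and -0.057 to 0.11 for Ehhadh in fed mice.

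No clear pairing of mice by replicate number was seen, though weak correlations cannot exclude one. Over 31 same-numbered pairs the correlation of deviations ran from -0.181 to 0.177, and 4 of 22 animals correlated best with their own number. The replicate block called 6 in place of 5 of the 9 genes in fed mice, Acaa1b being added, and 536 of all genes.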

Other observations

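The genes most like the other 6 members over 4 centred group means were read after the rest, with no test. The nearest were Wdr5 (root mean square difference 0.0065) for Acox2, Myl9 (0.021) for Acox3, Tmem191c (0.025) for Acaa1a, Cpsf4l (0.10) for Ech1, Ctif (0.076) and Eci3 (0.078) for Eci2, and Hspb1 (0.018) for Decr2. Pex16 (0.045) was among the 5 nearest to Acaa1a and Pex3 (0.046) among the 5 nearest to Decr2, both peroxisome biogenesis genes.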
